A study of Mus musculus with 8 samples.

Results

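TRBV1 is the variable segment of the mouse T-cell receptor (TCR) beta chain that is also called V beta 2, and the T cells described here are those whose beta chain was assembled from it. Members were taken by the V gene call of each beta chain in single-cell TCR libraries from injured brains. This gave 181 TRBV1 beta chains in 181 cells, out of 2920 cells with a beta chain, and 106 TRBV1 clonotypes out of 1649 clonotypes with a beta chain. No joint call of several segments named TRBV1. TRBV1 was selected on measured values, its shares of cells and of clonotypes in these libraries, which were known to disagree. Those shares are therefore given as a description with no test.

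All mice were male C57BL/6 with traumatic brain injury (TBI) from a controlled cortical impact, and CD45+ cells were sorted from their brains 2 months later. The aged mice came from the National Institute on Aging and the young mice from Jackson Laboratory. Age and source therefore cannot be told apart here. At injury, young mice (YTBI) were 13 to 15 weeks old and aged mice (ATBI) 80 to 82 weeks. They received 300 µg of the anti-CD49d antibody PS/2 (aCD49d), which binds the alpha-4 integrin chain, or the isotype control LTF-2, with repeat doses every 2 weeks. Each of the 4 groups, YTBI_Isotype, YTBI_aCD49d, ATBI_Isotype and ATBI_aCD49d, was 1 library made from 2 pooled mice, and no uninjured library was used here. The mice of a pool cannot be told apart, so a large clone may come from a single mouse, and the spread between mice is unknown. Every interval below is an exact 95% interval or is built from such intervals, and covers counting error only.

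A TCR beta chain is made when a V, a D and a J segment are cut and joined in a developing T cell. Bases are trimmed from the cut ends and random bases are added, and the stretch over the join, the complementarity-determining region 3 (CDR3), differs between nearly all T cells. CDR1 and CDR2 are encoded by the V segment itself. T cells with the same rearrangements descend from a common cell and form a clone, so the share of clonotypes counts each ancestor once, whereas the share of cells also counts how far each clone has grown. TRBV1 is also known as a beta segment of invariant natural killer T (iNKT) cells, which recognise lipids on CD1d with an alpha chain of TRAV11 joined to TRAJ18.

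Trbv1 lies on the plus strand at chr6:40891229-40891885 of GRCm38 in 2 exons of 122 and 295 bases, split by an intron of 240 bases. The annotation places no Trbv gene before it among the 35 of chromosome 6. The nearest, Trbv2, starts 155454 bases after its end, and Trbd1 starts 641315 bases after it. The V region from framework 1 to framework 3, of 270 bases, was the same in all 181 chains and was found in exon 2 without a mismatch, so CDR1 and CDR2 were shared by every member. The sequences below are read 5′ to 3′ from the plus strand of the RefSeq GRCm38 assembly. They show the parts that all members share and the germline end from which every TRBV1 junction starts, where capitals mark the heptamer at which the recombinase cuts.
CDR1, chr6:40891677-40891694: aattcccagtatccctgg
CDR2, chr6:40891746-40891763: ctgcggagtcctggggac
CDR3 start and heptamer, chr6:40891869-40891892: tgcacctgcagtgcagaCACAGTG

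Cells with a beta chain numbered 252 and 562 in YTBI_Isotype and YTBI_aCD49d, and 1004 and 1102 in ATBI_Isotype and ATBI_aCD49d. Their beta chains summed to 3207, 5583, 8070 and 13592 unique molecular identifiers (UMIs), in that order. Of all barcodes, 1 was found in 2 libraries, and it belonged to no TRBV1 cell. T cell subtype, including CD4 or CD8, was not analysed here.

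By point estimate, TRBV1 was carried by a larger part of the clonotypes in the aged libraries than in the young ones, and only in ATBI_Isotype was its share of cells above its share of clonotypes. In YTBI_Isotype, TRBV1 was found in 10 cells, 3.97% (1.92 to 7.18), and in 9 of 220 clonotypes, 4.09% (1.89 to 7.62). In YTBI_aCD49d, it was found in 22 cells, 3.91% (2.47 to 5.87), and in 20 of 453 clonotypes, 4.42% (2.72 to 6.74). Both young libraries therefore had TRBV1 near 4% by either measure. In ATBI_Isotype, the cell share was 8.57% (6.91 to 10.5), from 86 cells, and the clonotype share 6.68% (4.55 to 9.40), from 30 of 449 clonotypes. In ATBI_aCD49d, the cell share was 5.72% (4.42 to 7.26), from 63 cells, and the clonotype share 8.92% (6.63 to 11.7), from 47 of 527 clonotypes. The highest cell share and the highest clonotype share were thus in different libraries.

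The cell share minus the clonotype share was -0.12 and -0.50 percentage points in YTBI_Isotype and YTBI_aCD49d, and 1.88 and -3.20 percentage points in ATBI_Isotype and ATBI_aCD49d. In ATBI_aCD49d, TRBV1 ranked 2 of 22 TRBV segments by clonotypes, tied with TRBV3, and 6 by cells, tied with TRBV12-1. Its deficit of cells was the largest of the 22, with TRBV13-3 next at -2.87 points. In ATBI_Isotype, TRBV1 ranked 5 of 21 by clonotypes and 3 by cells. Deficits larger than that of TRBV1 in ATBI_aCD49d were seen there, as for TRBV13-3 (-4.10 points) and TRBV13-1 (-4.09 points). Without the largest TRBV1 clone of each library, the TRBV1 difference was -0.45, -0.81, -2.10 and -3.63 percentage points, in the order of libraries given above. The positive value of ATBI_Isotype therefore rested on 1 clone. The largest clones of the other segments were kept in this step. In both young libraries the step left only single-cell TRBV1 clonotypes, so a negative sign there was fixed in advance.

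**Figure D1:**
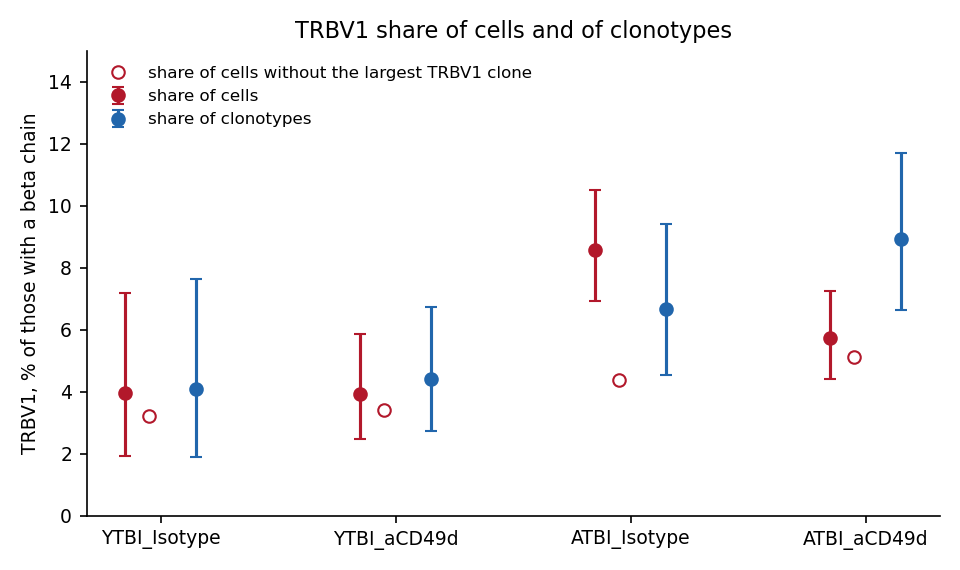
TRBV1 as a percent of cells with a beta chain (filled red) and of clonotypes with a beta chain (blue) in each of the 4 libraries, with exact 95% intervals; open circles are the cell share without the largest TRBV1 clone of the library. Cells exceed clonotypes in ATBI_Isotype alone, and that excess is gone without its largest clone, where the cell share is 4.38%.

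The series was built to compare the antibody with the isotype within each age, and the ages within each treatment. These 4 differences were described and not tested, because each group is 1 library. For the clonotype share, ATBI_aCD49d minus ATBI_Isotype was 2.24 percentage points (-1.32 to 5.73) and YTBI_aCD49d minus YTBI_Isotype was 0.32 (-3.60 to 3.52). The aged minus the young library gave 2.59 points (-1.53 to 6.09) under isotype and 4.50 points (1.24 to 7.75) under aCD49d. With only cells that had both chains, the last of these was 3.31 points (-0.179 to 6.72).

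For the cell share, the antibody difference had the opposite sign in the aged pair, at -2.85 percentage points (-5.15 to -0.587), and at -1.58 points (-4.19 to 0.914) with only cells that had both chains. Without the largest TRBV1 clone of each library it was 0.74 points (-1.19 to 2.64), so its direction was set by 1 clone of ATBI_Isotype. In the young pair the difference was -0.05 points (-3.57 to 2.78). Under isotype, the aged minus the young library was 4.60 points (0.986 to 7.40). It was 3.76 points (-0.154 to 6.75) with only cells that had both chains, and 1.17 points (-2.06 to 3.52) without the largest clones. Under aCD49d it was 1.80 points (-0.541 to 3.91). Cells of a clone are not independent draws, so intervals on cells are too narrow wherever a clone is large.

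Most TRBV1 clonotypes were single cells in every library, as were those of the other segments. Clonotypes with at least 2 cells, called clonal, numbered 1 of 9 and 1 of 20 in YTBI_Isotype and YTBI_aCD49d, and 6 of 30 and 5 of 47 in ATBI_Isotype and ATBI_aCD49d. These were 11.1, 5, 20.0 and 10.6% of the TRBV1 clonotypes, beside 8.02, 8.55, 18.8 and 15.4% of the others. The clonal clonotypes held 2 of 10 TRBV1 cells (20.0%, 2.52 to 55.6) in YTBI_Isotype and 3 of 22 (13.6%, 2.91 to 34.9) in YTBI_aCD49d. They held 62 of 86 TRBV1 cells (72.1%, 61.4 to 81.2) in ATBI_Isotype and 21 of 63 (33.3%, 22.0 to 46.3) in ATBI_aCD49d. This share depends on how many cells were caught, and at the 10 TRBV1 cells of YTBI_Isotype the expected share of YTBI_aCD49d was 9.35%, beside the 20.0% of YTBI_Isotype. For ATBI_Isotype it was 58.2% and for ATBI_aCD49d 15.3%. The aged pair differed by -38.8 percentage points (-53.4 to -21.9), antibody minus isotype, and by -17.9 points (-37.2 to 2.34) without the largest TRBV1 clone of each library. The young pair differed by -6.36 points (-43.6 to 21.2), a value with no stable sign, since it was 16.7 points with only cells with both chains and 13.6 points with a minimum of 3 cells.

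The cells of all other TRBV segments had nearly the same clonal share in both aged libraries. It was 62.9% (59.7 to 66.1) in ATBI_Isotype and 61.3% (58.3 to 64.2) in ATBI_aCD49d. The low clonal share of TRBV1 in ATBI_aCD49d goes with the values TRBV1 was selected on, since a cell share under the clonotype share means few cells per clonotype (1.34, against 2.17 for the others), so it is a description only. Without the largest clone of either set, the clonal share there was 25.0% for TRBV1 and 57.1% for the others. Counted per clonotype the sets overlapped, since 10.6% (3.55 to 23.1) of the TRBV1 clonotypes and 15.4% (12.3 to 18.9) of the others had at least 2 cells. In ATBI_Isotype, without the largest clone of either set, 42.9% (27.7 to 59.0) of TRBV1 cells and 58.1% (54.6 to 61.5) of the others were clonal. In YTBI_Isotype and YTBI_aCD49d, the other cells were clonal in 19.8% and 26.9%, within the wide intervals of TRBV1. Without the largest clone of either set, 0 of 8 TRBV1 cells (0 to 36.9) and 17.4% of the others were clonal in YTBI_Isotype, and 0 of 19 TRBV1 cells (0 to 17.6) and 22.5% (19.0 to 26.4) of the others in YTBI_aCD49d. That step takes the only TRBV1 clone with more than 1 cell from each young library.

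**Figure D2:**
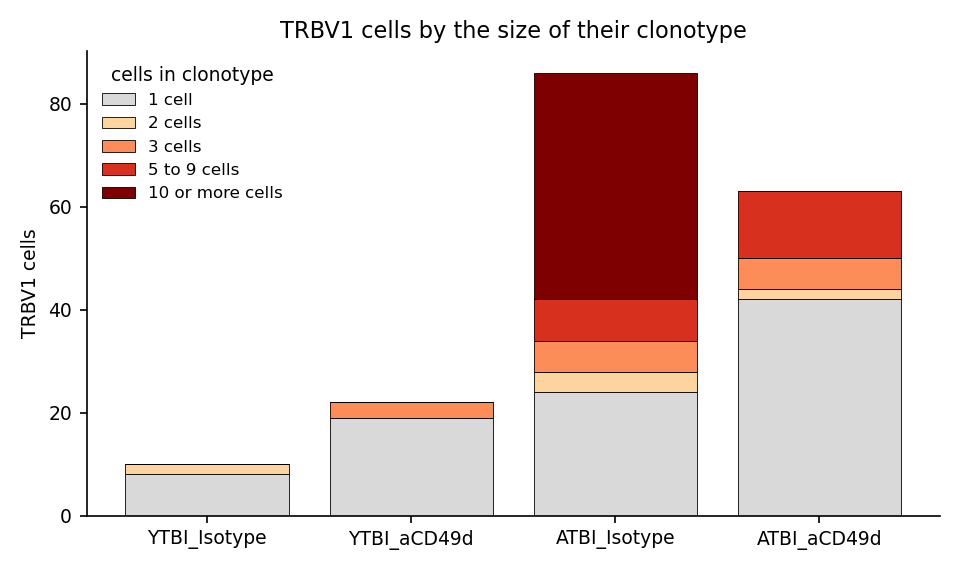
Number of TRBV1 cells in each library, stacked by how many cells their clonotype held. A single clonotype supplies 44 of the 86 cells of ATBI_Isotype, whereas 42 of the 63 cells of ATBI_aCD49d are alone in their clonotype.

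Of the TRBV1 clones, the largest of each library and those with at least 5 cells are described, which came to 6. The clone of 44 cells alone put a cell share above its clonotype share. Their beta CDR3 are printed in full because each is the rearrangement behind several cells. Lower case at the left is germline Trbv1, lower case at the right is germline J, and capitals are the bases between them, which hold D and added bases.
ATBI_Isotype, 44 cells: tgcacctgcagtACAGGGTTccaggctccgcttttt
ATBI_Isotype, 8 cells: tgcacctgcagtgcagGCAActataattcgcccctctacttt
ATBI_aCD49d, 7 cells: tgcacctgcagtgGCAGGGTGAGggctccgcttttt
ATBI_aCD49d, 6 cells: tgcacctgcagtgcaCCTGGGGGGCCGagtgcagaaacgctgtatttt
YTBI_aCD49d, 3 cells: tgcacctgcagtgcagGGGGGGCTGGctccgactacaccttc
YTBI_Isotype, 2 cells: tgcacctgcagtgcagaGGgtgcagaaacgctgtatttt

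The largest, with 44 cells, made up 51.2% of the TRBV1 cells of ATBI_Isotype and 4.38% (3.20 to 5.84) of all its cells with a beta chain, and was the fifth largest clone of that library. It joined TRBV1 to TRBJ1-5 with 8 bases between the germline ends and a CDR3 of 12 residues. An alpha chain was recovered in 24 of its cells (54.5%, 38.8 to 69.6), and it was a single rearrangement of TRAV14D-1 with TRAJ56. Its beta CDR3 nucleotides were identical in every cell. The next clone of that library, with 8 cells, used TRBJ1-6 and was 0.797% (0.345 to 1.56) of the cells. Its TRAV12-2 with TRAJ57 alpha chain was recovered in 2 of the 8.

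The largest TRBV1 clones of ATBI_aCD49d were small beside it. The clone of 7 cells used TRBJ1-5, as the clone of 44 cells did, with a CDR3 of the same 12 residues in length and 10 bases between the germline ends. It was 0.635% (0.256 to 1.30) of the cells, and all 7 held a TRAV5-4 with TRAJ49 alpha chain. The clone of 6 cells joined TRBJ2-3, with a CDR3 of 16 residues, and all 6 held TRAV14D-1 with TRAJ32. TRAV14D-1, also that of the clone of 44 cells, was found in these 2 of the 77 TRBV1 clonotypes with an alpha chain (2.60%) and in 2.31% of the others. In the young libraries, the clone of 3 cells used TRBJ1-2 with TRAV8-1 and TRAJ23, and the clone of 2 cells used TRBJ2-3 with no alpha chain recovered. No cell with another beta segment carried the alpha rearrangement of a TRBV1 cell of its library, the iNKT alpha chain left out.

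The clone of 7 cells in ATBI_aCD49d also carried another beta chain. In 6 of its cells, a TRBV20 chain joined to TRBJ1-4 was listed beside the TRBV1 chain, always as the same rearrangement.
TRBV20 chain, with its V and J germline parts in lower case: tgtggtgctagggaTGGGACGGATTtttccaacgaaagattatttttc
Over the 7 cells of the clone, the TRBV1 chain had 8 to 23 UMIs, with a median of 16. In the 6 cells with a TRBV20 chain, that chain had 3 to 14 UMIs, with a median of 4. The TRBV1 chain had more UMIs in 6 of 6, and the TRBV20 rearrangement was seen in no other clonotype. Over all libraries, another beta chain accompanied TRBV1 in 10 of 181 cells. Of these, 1 was in YTBI_Isotype, 2 were in ATBI_Isotype and 7 in ATBI_aCD49d. This was 5.52% (2.68 to 9.93) of TRBV1 cells, beside 1.35% (0.953 to 1.86) of the 2739 cells without TRBV1, and 2.30% (0.630 to 5.78) without the clone of 7 cells. A cell with more than 1 beta chain enters the TRBV1 set if any of them is TRBV1. It enters the comparison set only if none is. A higher share among TRBV1 cells is therefore built into this comparison, and no excess was tested. Doublets were not called, and leaving out cells with more than 1 beta chain is among the alternatives in the closing section.

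Disagreement between the shares was not particular to TRBV1. The largest was that of TRBV14 in ATBI_Isotype, at 16.6 percentage points, from 202 cells in 16 clonotypes. In ATBI_aCD49d the joint call of TRBV12-2 and TRBV13-2 had 5.83 points, TRBV3 5.06 and TRBV10 4.91. TRBV19 and TRBV31 are given as like segments. For TRBV19 the cell share minus the clonotype share was 13.1 percentage points in ATBI_Isotype and 1.12 in ATBI_aCD49d. Its largest clone held 56.7% of its cells in ATBI_Isotype and 47.9% in ATBI_aCD49d, where the largest TRBV1 clone held 51.2% and 11.1%. For TRBV31 the difference was 4.23 points in YTBI_aCD49d, where its largest clone held 49.2% of its cells, and -1.85 and -0.90 points in ATBI_Isotype and ATBI_aCD49d. As for TRBV1, the highest clonotype share and the highest cell share of TRBV19 were in different libraries, at 10.9% in YTBI_Isotype and 18.6% in ATBI_Isotype. For TRBV31 both were in YTBI_aCD49d.

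Every TRBV1 chain carried a cysteine inside its CDR3. The germline start encodes cysteine, threonine and cysteine at positions 1 to 3, counted from the conserved cysteine that opens the CDR3, and those 3 codons were kept in 106 of 106 rearrangements. The codons at positions 4 and 5 were kept as germline in 97 and in 63. Among 1585 rearrangements of the other segments, 5 (0.315%) had a cysteine after position 1. This is a germline feature that comes with the segment and not a property of these libraries.

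The Trbv1 end was often kept whole. Of its 17 germline CDR3 bases, 2.08 ± 2.15 (SD over 106 rearrangements) were missing on average, against 3.13 ± 2.52 over the 1304 rearrangements of other segments whose germline end was found. All 17 bases were present in 37 of 106 (34.9%, 25.9 to 44.8), and the whole V end in 18.9% (16.8 to 21.2) of the others, a difference of 16.0 percentage points (6.69 to 26.1). The share was above that of the others in each library, at 33.3, 40.0, 26.7 and 38.3% against 19.3, 22.2, 18.1 and 16.7%, in the order YTBI_Isotype, YTBI_aCD49d, ATBI_Isotype and ATBI_aCD49d. The interval of the difference excluded 0 in ATBI_aCD49d only, where it was 7.24 to 37.3. TRBV1 ranked 5 of 18 segments with at least 10 rearrangements, whose values ran from 0 to 48.9%, so a whole end was not particular to it. A base that was trimmed and refilled with the same letter counts as kept.

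The trimmed J end and the bases between were close to those of the other segments. TRBV1 rearrangements missed 2.70 ± 2.60 bases of J, against 2.84 ± 2.51, and had 9.35 ± 4.41 bases between V and J, against 10.2 ± 3.87. The beta CDR3 was 14.3 ± 1.40 residues long, against 14.0 ± 1.41. By library it was 13.8 ± 1.30, 14.2 ± 0.894, 14.4 ± 1.73 and 14.3 ± 1.37 residues, in the same order, so the libraries differed by less than the SD over clonotypes. Lengths ran from 10 to 17 residues, with 14 the most frequent. At 12 residues, 12 clonotypes held 62 cells, 44 of them from the largest clone.

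**Figure D3:**
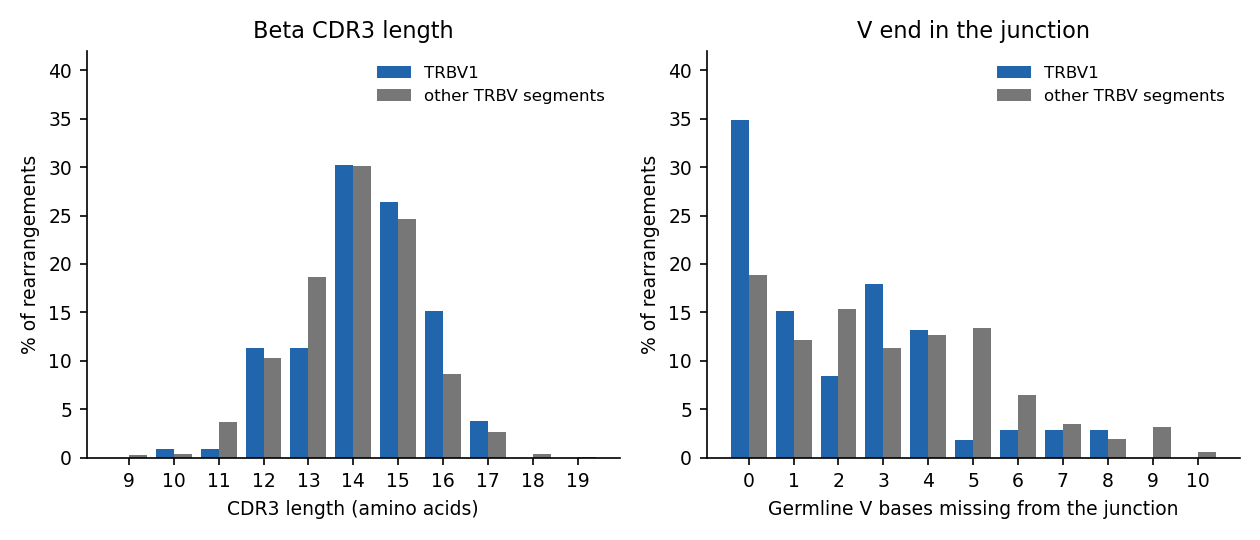
Left, length of the beta CDR3 in amino acids; right, number of germline V bases missing from the junction, drawn up to 10; bars are the percent of rearrangements of TRBV1 (blue) and of the other TRBV segments (grey), each counted once per clonotype. The lengths largely overlap, and no missing base is the most frequent state of TRBV1, at 34.9%.

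TRBV1 was joined to every TRBJ segment seen in the series, and no J partner stood out when each clonotype was counted once. The most frequent were TRBJ2-4 with 15 clonotypes (14.2%, 8.14 to 22.3), TRBJ2-7 with 15 and TRBJ1-1 with 14 (13.2%, 7.41 to 21.2). Among the other segments, TRBJ2-4 made up 8.96% (7.60 to 10.5), TRBJ2-7 19.7% (17.8 to 21.7) and TRBJ1-1 10.2% (8.71 to 11.8). For each of the 12 J segments the interval of the difference from the other segments included 0. Segments of the TRBJ2 cluster were used by 64 of 106 TRBV1 clonotypes (60.4%, 50.4 to 69.7) and by 63.7% (61.3 to 66.1) of the other rearrangements, a difference of -3.35 points (-13.6 to 6.33). The C gene belonged to the cluster of the J segment in 106 of 106. A D segment was called in few clonotypes, 16 with TRBD1 (15.1%) and 4 with TRBD2 (3.77%), and all 4 of the latter used TRBJ2. Calls were also few in the other rearrangements, at 16.5% with TRBD1 and 8.64% with TRBD2. Among the other segments, 135 of 137 TRBD2 calls were with TRBJ2 and 2 with TRBJ1, which lies before TRBD2 in the locus.

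Counted by cells, the J usage of TRBV1 looked different. TRBJ1-5 was used by 5 clonotypes (4.72%, 1.55 to 10.7) but by 56 cells (30.9%), and TRBJ2 segments by 40.9% of the cells. Without the largest clone, TRBJ1-5 made up 8.76% and TRBJ2 54.0% of the remaining 137 cells. By library, TRBJ1-5 was used by 0 of 10, 1 of 22, 44 of 86 and 11 of 63 TRBV1 cells, so in ATBI_Isotype every TRBJ1-5 cell belonged to that clone.

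**Figure D4:**
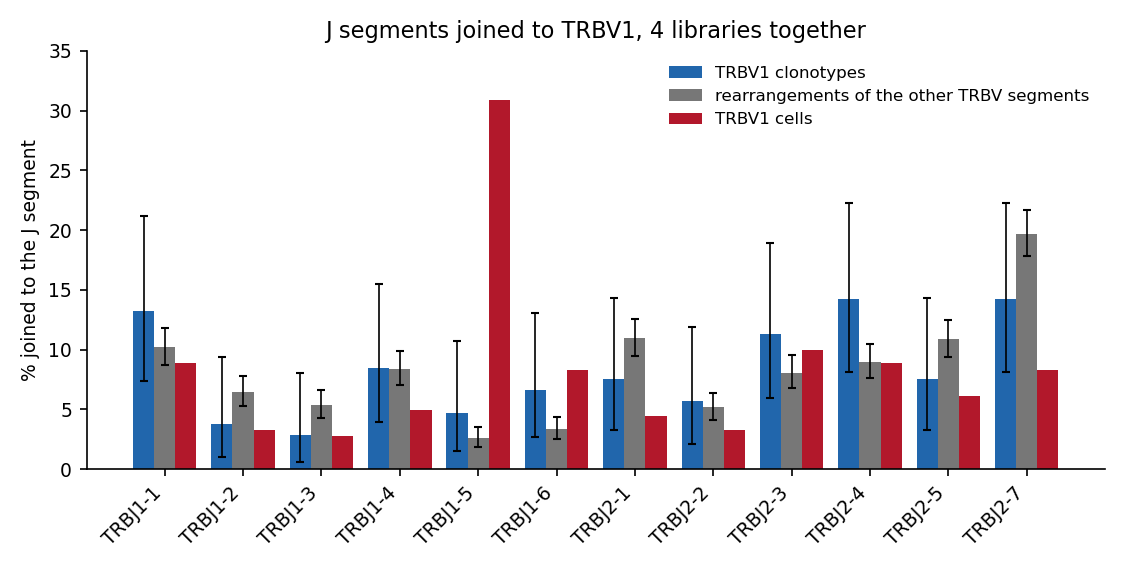
Percent of TRBV1 clonotypes (blue), of rearrangements of the other TRBV segments (grey), each with exact 95% intervals, and of TRBV1 cells (red) joined to each TRBJ segment, over the 4 libraries. The red bar of TRBJ1-5 reaches 30.9%, whereas 4.72% of TRBV1 clonotypes used it.

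TRBV1 paired with many alpha chains. Of the 106 clonotypes, 77 had an alpha chain, and these held 80 alpha rearrangements from 41 TRAV and 33 TRAJ segments, with a pair of alpha chains in 3 clonotypes. The TRAV partner with most clonotypes was TRAV11, the iNKT segment, with 11 (14.3%, 7.35 to 24.1), against 8.12% (6.67 to 9.77) of the 1256 other clonotypes with an alpha chain. TRAV12-2 followed with 5 (6.49%, 2.14 to 14.5), against 3.03%, and TRAV10D and TRAV13-1 were tied with 4 each. TRAV10D paired with 5.19% (1.43 to 12.8) of TRBV1 clonotypes and with 0.398% (0.129 to 0.927) of the others, a difference of 4.80 points (0.998 to 12.4). TRAV13-1 paired with 5.19% and with 2.47% (1.68 to 3.49), a difference of 2.73 points (-1.17 to 10.3). These are 2 of 41 TRAV segments compared, and no interval is adjusted for that number. The closely related TRAV10N lay on the same side as TRAV10D, with 3.90% of TRBV1 clonotypes and 1.43% of the others. Its difference was 2.46 points (-0.730 to 9.56). TRAV10 lay on the other side, with 1.30% of TRBV1 clonotypes and 3.11% of the others. For the TRAV10 family together the difference was 5.45 points (-0.497 to 14.6). TRAJ18 led the TRAJ partners with 13 clonotypes, ahead of TRAJ23 with 7 and TRAJ57 with 6. For TRAJ18 this was 16.9%, against 9.39% of the others, a difference of 7.49 points (-0.287 to 17.9). For TRAJ23 it was 9.09% against 4.70%, a difference of 4.39 points (-1.12 to 13.2). For TRAJ57 it was 7.79% against 2.07%, with the difference given under other observations.

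The iNKT rearrangement, TRAV11 joined to TRAJ18, was found in 11 TRBV1 clonotypes and 11 cells. YTBI_Isotype held 1 of them, ATBI_Isotype 2, and YTBI_aCD49d and ATBI_aCD49d 4 each. These were 14.3% (7.35 to 24.1) of the TRBV1 clonotypes with an alpha chain, against 7.96% (6.52 to 9.60) of the others, and the difference of 6.32 points (-0.800 to 16.3) included 0. The share was above that of the others in each library, at 14.3, 25.0, 10.5 and 11.4% against 10.8, 8.33, 6.07 and 7.88%, and each of those intervals included 0. Among all 112 cells with this alpha chain and a beta chain, TRBV1 supplied 9.82% (5.01 to 16.9). It came after the joint call of TRBV12-2 and TRBV13-2 with 58 cells and TRBV13-1 with 20, and before TRBV29 with 10.

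The beta CDR3 of these 11 clonotypes varied in length and J segment. They were distinct, as those of all 106 TRBV1 clonotypes were, and were of 13 to 17 residues (14.8 ± 1.08), with 6 J segments, of which TRBJ1-4 was used by 4 and TRBJ1-1 by 3. Of the 11, 8 used a TRBJ1 segment. Shown here, with the same capitals as above, are the rearrangement of YTBI_Isotype, the first listed of YTBI_aCD49d, both of ATBI_Isotype and the shortest and longest of ATBI_aCD49d because they show the shared germline parts beside the varied middle.
YTBI_Isotype, TRBJ1-4: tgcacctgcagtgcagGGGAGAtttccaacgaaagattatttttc
YTBI_aCD49d, TRBJ2-4: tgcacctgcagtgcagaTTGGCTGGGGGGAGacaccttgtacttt
ATBI_Isotype, TRBJ1-6: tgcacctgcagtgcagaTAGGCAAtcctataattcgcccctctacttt
ATBI_Isotype, TRBJ1-4: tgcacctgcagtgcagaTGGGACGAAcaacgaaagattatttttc
ATBI_aCD49d, TRBJ2-7: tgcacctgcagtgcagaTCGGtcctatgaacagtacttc
ATBI_aCD49d, TRBJ1-1: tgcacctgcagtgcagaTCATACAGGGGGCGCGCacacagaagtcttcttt

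The alpha side was nearly uniform. The 11 cells held 5 different nucleotide CDR3, all of 45 bases, and 9 of the 11 cells encoded the same amino acids. The nucleotide forms carried by 3 cells each are these.
Alpha CDR3, 3 TRBV1 cells of 32 iNKT cells: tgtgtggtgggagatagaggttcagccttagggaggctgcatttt
Alpha CDR3, 3 TRBV1 cells of 39 iNKT cells: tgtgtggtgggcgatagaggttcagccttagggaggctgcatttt
Alpha CDR3, 3 TRBV1 cells of 32 iNKT cells: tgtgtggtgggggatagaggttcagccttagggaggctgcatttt
Of the 11 clonotypes, 10 were single cells and 1, in ATBI_Isotype, had 2 cells, so none of the large TRBV1 clones was of this kind. The deposited clonotype tables carry a mark for iNKT evidence, and the beta gene alone sets it for TRBV1. It was present in all 106 TRBV1 clonotypes, but evidence from both chains was present in 11. The other 95 clonotypes, with 169 cells, had the mark from the beta gene alone.

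TRBV1 chains were supported by more UMIs than the other beta chains in every library. In YTBI_Isotype, the median was 17.5 UMIs per TRBV1 chain (quartiles 5 and 20.8) and 11 (7 and 16) per other chain. In YTBI_aCD49d, it was 17 (14 and 21.5) and 8 (5 and 13). In ATBI_Isotype, it was 10 (7 and 14.8) and 6 (4 and 10), and in ATBI_aCD49d 19 (12 and 26) and 10 (6 and 15). The medians of TRBV1 were 1.59, 2.12, 1.67 and 1.90 times those of the other chains, and with each clonotype counted once they were 18, 17, 12 and 19 against 11, 9, 7 and 10. Among segments with at least 10 cells, TRBV1 ranked 1 of 13, 2 of 20, 4 of 20 and 3 of 20 by median UMIs. Segments above it were few, but it was the first only in YTBI_Isotype, where its 10 cells just met that minimum. Below the minimum in that library, TRBV15 had a median of 28 UMIs from 3 cells and TRBV17 22 from 7.

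The alpha chains of the same cells were not higher. Their median was 3, 3, 2 and 4 UMIs in TRBV1 cells and 4, 3, 3 and 4 in the other cells, in the order of the libraries. No TRBV1 chain rested on 1 UMI, 0 of 181, which allows a share of up to 1.66%, against 36 of 2786 other chains (1.29%, 0.907 to 1.78). The part that chain recovery plays in the TRBV1 shares was not tested. An alpha chain was found in 7 of 10 TRBV1 cells in YTBI_Isotype (70.0%, 34.8 to 93.3) and 18 of 22 in YTBI_aCD49d (81.8%, 59.7 to 94.8). It was found in 48 of 86 in ATBI_Isotype (55.8%, 44.7 to 66.5) and 51 of 63 in ATBI_aCD49d (81.0%, 69.1 to 89.8). ATBI_Isotype was also lowest for the other cells, at 68.0%, where the other libraries had 82.7, 77.6 and 83.4%. Without its largest TRBV1 clone the share in ATBI_Isotype was 57.1% (41.0 to 72.3).

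**Figure D5:**
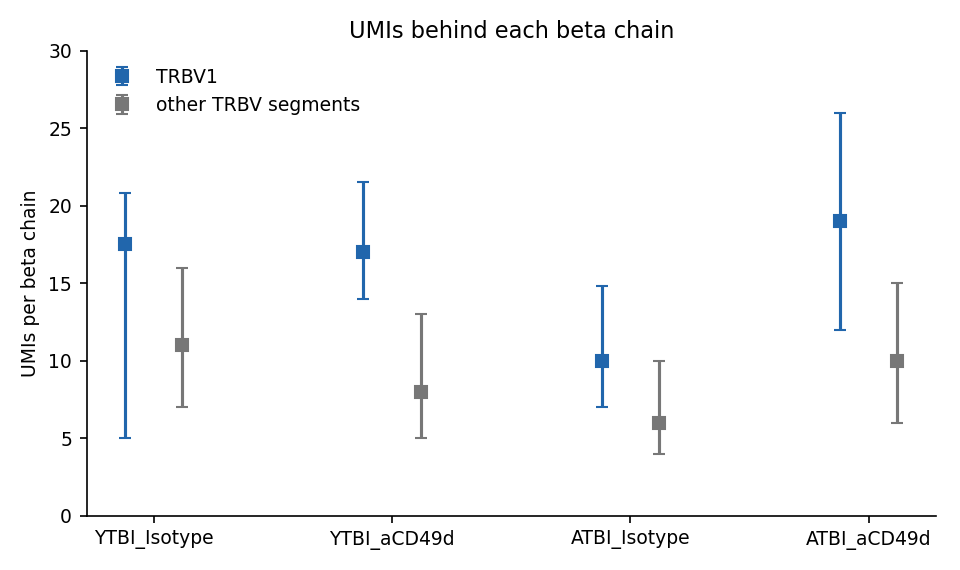
Median number of UMIs behind each beta chain, with lines from the lower to the upper quartile, for TRBV1 (blue) and the other TRBV segments (grey) in each library. The TRBV1 median is above that of the other segments in all 4 libraries, from 1.59 to 2.12 times.

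TRBV1 receptors were almost never shared between libraries, and nor were those of the other segments. The 106 clonotypes had 106 different nucleotide CDR3, none of which occurred in more than 1 library. By amino acids with the J segment, 105 were distinct, and 1 was found both in YTBI_aCD49d and in ATBI_aCD49d, in 1 cell of each. Among the other segments, 1 of 1571 nucleotide CDR3 and 5 of 1559 by amino acids occurred in more than 1 library. The shared TRBV1 receptor joined TRBJ2-1 with 12 residues. Its nucleotides differ at 2 bases between the libraries.
YTBI_aCD49d: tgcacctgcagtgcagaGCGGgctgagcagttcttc
ATBI_aCD49d: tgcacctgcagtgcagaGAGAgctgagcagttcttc
Both keep the whole Trbv1 end and have 4 bases between V and J, whereas 9.35 was the mean of all. The cell of YTBI_aCD49d had an alpha chain of TRAV4-4-DV10 with TRAJ47 and the cell of ATBI_aCD49d had none, so whether the whole receptor was shared cannot be told.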

How the data were processed

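Single-cell TCR libraries of CD45+ brain cells, 1 per group, were read from the contig and clonotype tables. The authors used 10x Genomics 5′ v2 chemistry and, per the labels, Cell Ranger 7.2.0, aligned to mm10. The deposited contig tables give counts of UMIs and reads for each productive chain, and the deposited clonotype tables give cells per clonotype as counts and as a fraction of the library. The authors' later restriction to T cells by transcriptome was not repeated.

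TRBV1 shares were taken over cells, or clonotypes, with a beta chain, and a clonotype kept its deposited definition. A clonotype with more than 1 beta chain counts under each segment. "Other" is every other TRBV segment together. Each CDR3 was compared base by base with the germline V end and J start of GRCm38 (RefSeq sequence, GENCODE vM21 genes). A germline end was found for 100% of TRBV1 and 82.3% of other rearrangements, the joint call of TRBV12-2 and TRBV13-2 being left out. Shares carry Clopper-Pearson intervals (exact, 95%), and each difference carries a Newcombe-type interval made from their bounds. The code was tested on simulated data. Groups of 1 library allow no test. The limit for a count of 0 is 3 counts.

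The segment, lists and alternatives were chosen with earlier results of these data known. Clones named are the largest TRBV1 clonotype of each library and every one with at least 5 cells, and partners named are the 3 with most clonotypes. Receptors found in more than 1 library are named too, and TRBV19 and TRBV31 as like segments. TRBJ1-5, TRAV10, TRAV10N, TRBV14, TRBV3, TRBV10, TRBV12-1, TRBV13-1, TRBV13-3, TRBV15, TRBV17, TRBV20 and the iNKT beta segments were named after their values were seen. Alternatives were other clonotype definitions, other cells or chains, other denominators, equal cell number and a minimum of 3 cells. Leaving out iNKT cells, and the clonal share without the largest clones, were added after values were seen. Python 3.11.15, numpy 2.4.6, pandas 2.3.3, scipy 1.17.1, pysam 0.24.0 and matplotlib 3.10.9 were used.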

Additional observations from a re-analysis of the deposited data

Results flagged for a closer look

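In 2 measures of TRBV1 clonotypes, the antibody library lay on one side of its isotype library in young mice and on the other side in aged mice. The TRBJ2 share of TRBV1 clonotypes was 9.44 percentage points higher in YTBI_aCD49d than in YTBI_Isotype, and ATBI_aCD49d minus ATBI_Isotype was -5.89 points. The mean CDR3 length was 0.422 residues higher in YTBI_aCD49d than in YTBI_Isotype, and ATBI_aCD49d minus ATBI_Isotype was -0.0262 residues. Whether the ages differ was not tested, since each group is 1 library, and the TRBJ2 shares of both young libraries have intervals over 40 points wide.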

How the results depend on the processing

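CDR3 length left out, 185 of 192 values under the alternatives set at the start stayed within the counting interval of the reported value, intervals that are wide in the young libraries. For the cell share minus the clonotype share no interval is reported, because the cells are nested in the clonotypes. The counts in this section judged that measure by an interval that ignores the nesting. The mean CDR3 length of a library moved by at most 0.367 residues. Leaving out the largest TRBV1 clone of each library moved the cell share of ATBI_Isotype to 4.38%, turned its cell share minus clonotype share to -2.10 points and turned the cell share difference of the aged pair to 0.739 points. With clonotypes defined by alpha and beta CDR3 amino acids, the cell share minus clonotype share of YTBI_Isotype turned to 0.0209 points; the cause was not tested. The clonal share of YTBI_Isotype, which rests on 1 clone of 2 cells, was 0 with only cells with both chains and 0 with a minimum of 3 cells. At 10 TRBV1 cells, the number in the smallest library, the expected clonal share was 58.2% in ATBI_Isotype and 15.3% in ATBI_aCD49d, since fewer cells leave fewer clones seen more than once. Of 40 values under the alternatives added later, 4 moved, all from leaving out the largest TRBV1 clone of each library: the clonal share was then 0 in YTBI_Isotype, 0 in YTBI_aCD49d and 42.9% in ATBI_Isotype, and the aged pair differed by -17.9 points. Within their intervals, some small differences of the young pair also changed sign. The cell share difference, -0.0537 points, became 0.217, 0.737 and 0.199 without cells with extra chains, with only paired cells and without the largest clones. The clonal share difference became 16.7 and 13.6 points, as given above, and the clonotype share difference -0.190 points without the TRAV11 and TRAJ18 cells. The values with only paired cells of 3 share differences are given beside them above. The cell share minus clonotype share of ATBI_aCD49d was -2.14 points with only paired cells. No value left its interval without the TRAV11 and TRAJ18 cells or when cells with extra chains (over 1 beta or over 2 alpha) were left out. No paired analysis was possible because a group is a single library. The 10 and 22 TRBV1 cells of the young libraries limit every statement on them.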

Other observations

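The TRAV6 family and TRAJ57 were picked from 17 TRAV families and 33 TRAJ segments after their values were seen, so the intervals are not adjusted for that choice. The TRAV6 family paired with 3 of 77 TRBV1 clonotypes (3.90%, 0.811 to 11.0) and with 162 of 1256 others (12.9%, 11.1 to 14.9), a difference of -9.00 percentage points (-12.7 to -1.70). TRAJ57 paired with 6 TRBV1 clonotypes (7.79%, 2.91 to 16.2) and with 2.07% (1.36 to 3.02) of the others, a difference of 5.72 points (0.752 to 14.2). One TRBV1 clonotype carried the mark for mucosal-associated invariant T cell evidence in the deposited tables.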
